A study of Mus musculus with 16 samples.

Results

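Bile acid synthesis and its control were followed through 10 genes of mouse liver: the enzymes Cyp7a1, Cyp8b1, Cyp27a1, Cyp2c70, Slc27a5 and Baat, the transporters Abcb11 and Slc10a1, and the nuclear receptors Nr1h4 and Nr0b2. The genes were listed by name, and 10 of 10 were measured among the 18820 genes of the arrays, each by 1 probe set. Hepatocytes make bile acids from cholesterol, either by the neutral pathway that CYP7A1 opens or by the acidic pathway that CYP27A1 opens, then join them to an amino acid and pump them into bile. Most bile acids return from the gut and are taken up again. They bind the receptor FXR (Nr1h4), which raises transcription of the export pump and of SHP (Nr0b2), a repressor of the synthesis genes.

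Whole-transcript arrays were read on liver RNA of male mice aged 14 to 16 weeks, in 4 groups of 4 arrays: wild type (WT, C57Bl/6J) mice and mice null for vanin-1 (knockout, KO), each fed or fasted for 24 h. All the mice were housed singly, ate chow and were anaesthetised with isoflurane, and the strain background is given as C57Bl/6J for both genotypes. How the null allele was made, and whether the wild types were littermates, the sources used here do not say. Values are log2 RMA intensities, and an array is called by its group and the number in its title, as in fasted WT 4. Levels of different genes were not set against each other, since each probe set has its own brightness. No label states in words that the arrays of a group come from separate animals, so a p-value here speaks only of the spread between samples, which may be technical. With 4 arrays per group, that number limits how precise any value can be.

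Vnn1, the targeted gene, was at 6.71 to 11.47 on the 8 wild type arrays and at 3.67 to 4.26 on the 8 knockout arrays. Each array thus carried the signal its genotype label calls for. Vnn1 does not check the feeding labels, since wild type arrays overlapped (6.71 to 10.34 fed, 9.93 to 11.47 fasted). Hepatocyte markers averaged 13.14 to 13.34 on every array, and bile duct markers 4.87 to 5.23, near the array medians of 5.19 to 5.29. Of 6 stellate cell markers, Lrat and Col3a1 fell in fasted liver of both genotypes and 4 were not called. Among those 4, Dcn averaged 11.62 fed and 11.80 fasted in wild type, and 11.65 and 11.73 in knockout. The stellate list averaged 7.99 to 8.26 on fed and 7.74 to 8.08 on fasted arrays. Of 6 Kupffer cell markers, Adgre1 fell in fasted wild type, and none was called in knockout. Marco, not called, averaged 5.91 fed and 6.05 fasted in wild type, and 5.39 and 6.02 in knockout. The Kupffer list averaged 8.07 to 9.09 on fed and 7.73 to 8.56 on fasted arrays. The calls of Lrat and Adgre1 were lost without some single arrays (limma's adjusted p up to 0.134 and 0.127 in wild type, and 0.085 for Lrat in knockout). Their part in the results below was not tested. In whole liver RNA, fewer cells of a type and less RNA per cell cannot be told apart. On fasted WT 4, 4 pancreas markers averaged 8.62 against 3.69 to 4.04 on the other arrays. On fed KO 4, 5 acute phase genes averaged 12.90 against 9.05 to 11.41 on the others. Cyp7a1, Cyp8b1 and Nr0b2, which moved most when these arrays were left out, are given with and without them. For the other 7 members, leaving out either array or both moved no fasting or genotype difference by more than 0.11 and no difference of responses by more than 0.21 on the log2 scale.

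The 250 bases before the transcription start are shown for the 3 genes that passed the test in fasting, Abcb11, Cyp2c70 and Cyp8b1, and for Nr0b2, the member with the largest spread between arrays of a group. The sequences are from RefSeq, build GRCm38.p6, written 5′ to 3′ along each gene: Abcb11 at chr2:69342617-69342866 (minus strand), Cyp2c70 at chr19:40187287-40187536 (minus), Cyp8b1 at chr9:121916306-121916555 (minus) and Nr0b2 at chr4:133553126-133553375 (plus). Capitals mark the matches to the motifs named after them.
Abcb11: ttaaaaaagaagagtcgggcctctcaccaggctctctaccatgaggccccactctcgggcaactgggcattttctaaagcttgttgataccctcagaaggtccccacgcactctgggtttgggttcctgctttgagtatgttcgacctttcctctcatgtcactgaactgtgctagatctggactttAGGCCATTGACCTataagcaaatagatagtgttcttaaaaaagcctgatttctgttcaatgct
Cyp2c70: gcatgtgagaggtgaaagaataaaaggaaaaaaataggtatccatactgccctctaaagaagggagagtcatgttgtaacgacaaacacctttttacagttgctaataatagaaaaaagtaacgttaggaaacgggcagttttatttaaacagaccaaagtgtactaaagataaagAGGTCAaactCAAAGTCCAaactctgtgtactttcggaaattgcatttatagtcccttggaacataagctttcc
Cyp8b1: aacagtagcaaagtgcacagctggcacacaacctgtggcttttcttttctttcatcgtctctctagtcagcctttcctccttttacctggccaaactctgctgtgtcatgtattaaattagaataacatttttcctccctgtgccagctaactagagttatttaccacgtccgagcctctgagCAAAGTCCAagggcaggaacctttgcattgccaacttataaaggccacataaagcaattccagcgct
Nr0b2: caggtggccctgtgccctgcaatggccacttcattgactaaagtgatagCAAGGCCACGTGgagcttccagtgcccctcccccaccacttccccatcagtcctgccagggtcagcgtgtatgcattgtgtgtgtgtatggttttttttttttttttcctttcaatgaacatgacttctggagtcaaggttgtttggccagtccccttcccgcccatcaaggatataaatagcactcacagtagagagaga
Windows were found for 7 of the 10 genes (Slc10a1 has 2), and both strands were searched for the letters of each motif. CAAAGTCCA, a form of the site read by HNF4A, was in Cyp8b1 at bases 67 to 59 before the start and in Cyp2c70 at bases 64 to 56. It was in 0.384% of 32851 windows of the same length. An inverted repeat of the kind bound by FXR with RXR, AGGNCA followed after 1 base by TGACCT, was in Abcb11 at bases 63 to 51 and in 0.0335% of windows. This motif was written with the Abcb11 sequence in view. The nuclear receptor motif AGGTCA, in 14.0% of windows, was in Cyp2c70 at bases 74 to 69 and, on the other strand, in Abcb11 at bases 56 to 51, where it overlaps the inverted repeat. It was also in Nr1h4 at bases 214 to 209, again on the other strand. In 1 of the Slc10a1 windows it lay at bases 87 to 82, on the strand as written. In Nr0b2, CAAGGCCA (a form of the NR5A2 site, in 1.99% of windows) lay at bases 201 to 194 and overlapped an E-box, CACGTG (6.02%), at bases 195 to 190. CAAGGTCA, another form of the NR5A2 site, was in 1.33% of windows and in no window of the 7 genes. A match describes the letters of the window, and none of these matches was tested as a binding site.

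The effect of a 24 h fast was asked within each genotype. Fasting moved 3 of the 10 genes in wild type liver and the same 3 in knockout liver: Cyp8b1 rose, and Cyp2c70 and Abcb11 fell. Of all 18820 genes, 7.61% were called in wild type (3.34% up, 4.27% down) and 9.42% in knockout (4.53% up, 4.89% down), and 4.57% were called in both in the same direction. The other 7 bile acid genes did not pass the test in either genotype. The median difference over the 10 genes was 0.00 on the log2 scale in both genotypes, beside 0.01 over all genes in wild type and 0.02 in knockout. Calls are limma's adjusted p (Benjamini-Hochberg over all genes) below 0.05.

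**Figure D1:**
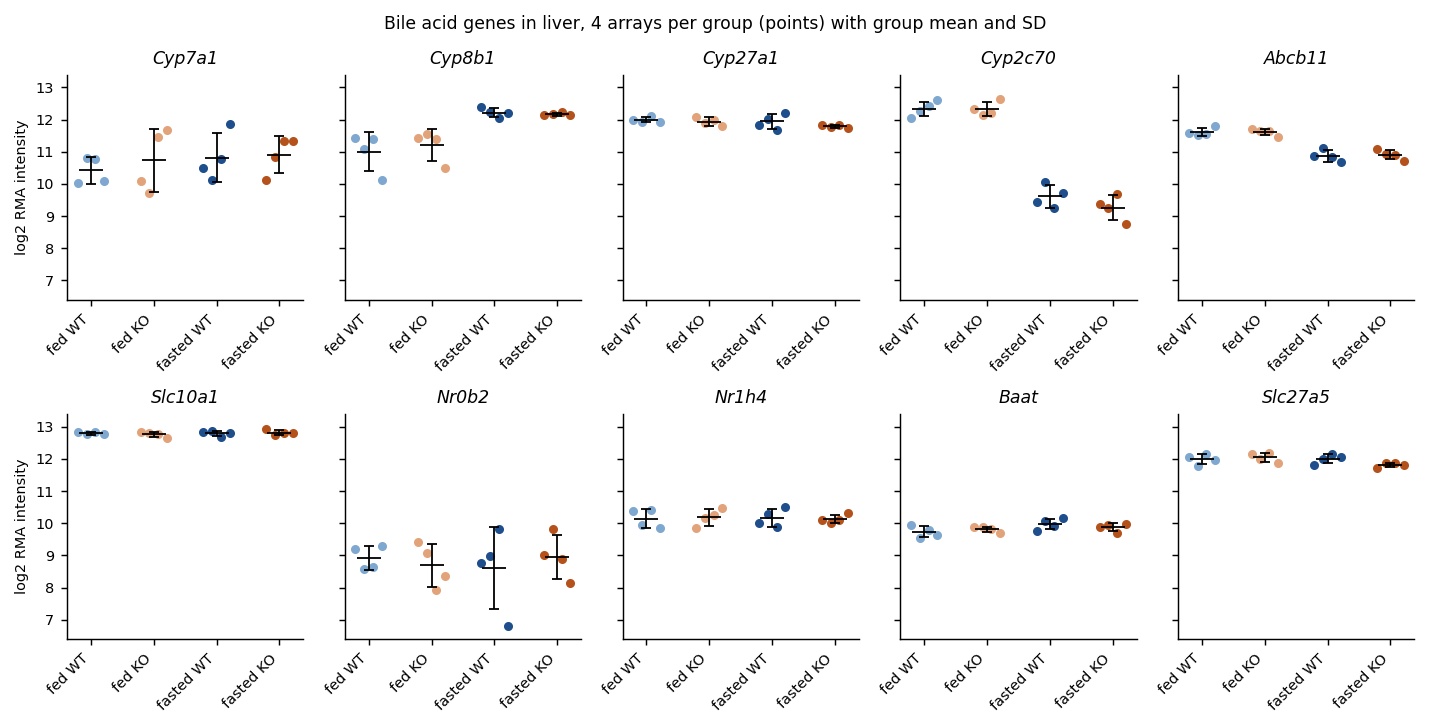
Log2 RMA intensity (vertical axis) of the 10 bile acid genes on each array, by group (horizontal axis), with the group mean and SD as black marks, n = 4 per group. Cyp2c70 lies at 12.06 to 12.64 on fed and 8.76 to 10.06 on fasted arrays, Cyp8b1 is higher on all fasted arrays, and Cyp7a1 and Nr0b2 scatter widely inside each group.

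Cyp7a1 encodes the rate-limiting enzyme of the neutral pathway. Its values, in title order, were 10.03, 10.80, 10.77 and 10.09 in fed wild type and 10.50, 10.11, 10.77 and 11.87 in fasted wild type. In knockout liver they were 10.10, 9.72, 11.45 and 11.69 when fed and 10.12, 10.83, 11.33 and 11.35 when fasted. The groups overlapped throughout, and the lowest and the highest fed knockout arrays were almost as far apart as any of the 16. The fasting difference was 0.39 in wild type (95% interval -0.52 to 1.30, adjusted p = 0.67 by limma) and 0.17 in knockout (-0.74 to 1.08, adjusted p = 0.87). Both intervals are wide enough to include a rise as large as the fall of Abcb11. The values rested on single arrays: without fasted WT 4 the wild type difference was 0.03, and without fed KO 4 the knockout difference was 0.49.

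Cyp8b1 encodes the sterol hydroxylase that directs the pathway to cholic acid. Fed wild type arrays read 11.42, 11.09, 11.39 and 10.13, and fasted wild type arrays 12.38, 12.23, 12.05 and 12.21. Fed knockout arrays read 11.42, 11.54, 11.39 and 10.49, and fasted knockout arrays 12.13, 12.17, 12.24 and 12.14. Every fasted array was above every fed array, and in both fed groups array 4 was the lowest. The spread was wider in the fed groups (SD 0.60 and 0.48) than in the fasted ones (0.14 and 0.05). Cyp8b1 rose 2.31-fold in wild type (log2 difference 1.21, SE 0.24, adjusted p = 0.00552 by limma) and 1.94-fold in knockout (0.96, SE 0.24, adjusted p = 0.0176). The wild type difference ran from 0.92 to 1.35 over single arrays left out, and was lowest without fed WT 4. It stayed called in each of these fits (adjusted p 0.00177 to 0.0159 by limma). The knockout call rested on fed KO 4: without that array the knockout difference was 0.72 and the adjusted p 0.0539. It was 0.72 (0.0606) without both fasted WT 4 and fed KO 4, and 0.73 (0.116) without 3 arrays whose name ends in 2, which include fed KO 4.

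Cyp27a1 encodes the mitochondrial enzyme that opens the acidic pathway and oxidises the side chain. It stayed between 11.69 and 12.21 on all 16 arrays, with group means of 11.99 ± 0.08 (SD, n = 4) in fed wild type, 11.94 ± 0.13 in fed knockout, 11.94 ± 0.22 in fasted wild type and 11.80 ± 0.04 in fasted knockout. The fasting difference was -0.05 in wild type (-0.25 to 0.16) and -0.14 in knockout (-0.35 to 0.07), both within the spread between arrays.

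Cyp2c70 encodes the hydroxylase that makes the muricholic acids of mice. Fed wild type arrays read 12.06, 12.26, 12.41 and 12.60, and fasted wild type arrays 9.44, 10.06, 9.24 and 9.72. Fed knockout arrays read 12.34, 12.14, 12.20 and 12.64, and fasted knockout arrays 9.38, 9.24, 9.68 and 8.76. The fed and fasted values were separated by a gap far wider than the range of any group. Cyp2c70 fell 6.58-fold in wild type (log2 difference -2.72, SE 0.19, adjusted p = 1.91e-06 by limma) and 8.35-fold in knockout (-3.06, SE 0.19, adjusted p = 2.96e-07). It was the largest difference among the 10 genes. The windows of Cyp8b1, which rose, and of Cyp2c70, which fell, both hold CAAAGTCCA. Whether that match bears on either change was not tested.

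The enzymes that activate and conjugate bile acids did not pass the test. Slc27a5, the ligase that joins bile acids to coenzyme A, lay between 11.73 and 12.17 on all arrays. Its fasting difference was 0.00 in wild type (-0.20 to 0.21, adjusted p = 0.985 by limma) and -0.23 in knockout (-0.43 to -0.02, adjusted p = 0.166). Baat, which transfers the bile acid to taurine or glycine, lay between 9.55 and 10.15. Its difference was 0.24 in wild type (0.02 to 0.45, adjusted p = 0.183 by limma) and 0.06 in knockout (-0.15 to 0.27, adjusted p = 0.792). The intervals of Baat in wild type and Slc27a5 in knockout excluded 0, but neither held after correction over all genes.

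Abcb11 encodes the bile salt export pump of the canalicular membrane. Fed wild type arrays read 11.57, 11.51, 11.54 and 11.79, and fasted wild type arrays 10.88, 11.13, 10.84 and 10.68. Fed knockout arrays read 11.72, 11.63, 11.63 and 11.47, and fasted knockout arrays 11.08, 10.94, 10.91 and 10.72. Fed and fasted arrays did not overlap in either genotype. Abcb11 fell 1.65-fold in wild type (log2 difference -0.72, SE 0.10, adjusted p = 0.000454 by limma) and 1.62-fold in knockout (-0.70, SE 0.10, adjusted p = 0.000309). For the 3 called genes the arrays of the fed and fasted groups were apart in both genotypes, as they were for 12.4% of all genes in wild type and 17.0% in knockout.

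Slc10a1 encodes NTCP, the carrier that takes conjugated bile acids up from blood. It was the steadiest of the 10, at 12.65 to 12.92 on all arrays, and 98.1% of all genes had a larger spread within groups. The fasting difference was 0.00 in wild type (-0.15 to 0.14) and 0.06 in knockout (-0.09 to 0.20). Changes as large as that of Abcb11 lie outside both intervals.

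Nr1h4, the gene of FXR, lay between 9.84 and 10.51, and the group means spanned 10.13 to 10.18. Its fasting difference was 0.03 in wild type (-0.31 to 0.37) and -0.05 in knockout (-0.39 to 0.28). Nr0b2, the gene of SHP and a textbook FXR target like Abcb11, varied far more. Fed wild type arrays read 9.19, 8.59, 8.63 and 9.30, and fasted wild type arrays 8.78, 8.98, 9.83 and 6.81. Fed knockout arrays read 9.41, 9.08, 7.92 and 8.37, and fasted knockout arrays 9.02, 9.81, 8.88 and 8.13. The lowest and the highest of the 16 values were both in fasted wild type, on arrays 4 and 3. Its fasting difference was -0.33 in wild type (-1.38 to 0.72, adjusted p = 0.767 by limma) and 0.27 in knockout (-0.78 to 1.31, adjusted p = 0.814). Without fasted WT 4 the wild type difference turned to 0.27 (adjusted p = 0.796), and without fed KO 4 the knockout difference was 0.16.

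**Figure D2:**
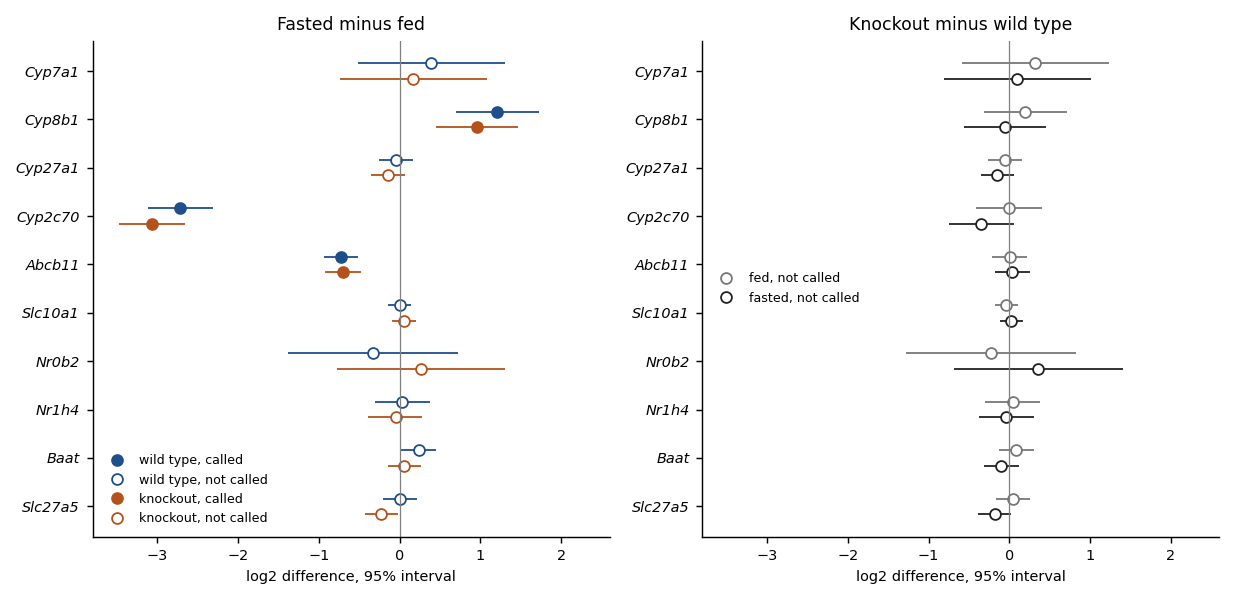
Log2 differences (horizontal axis) with 95% intervals for the 10 genes (vertical axis), fasted minus fed in each genotype on the left and knockout minus wild type in each feeding state on the right; filled points are called genes. Cyp8b1, Cyp2c70 and Abcb11 are filled in both genotypes on the left, no gene is filled on the right, and Cyp7a1 and Nr0b2 have the widest intervals.

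The effect of vanin-1 loss was asked in fed liver, in fasted liver and as the mean of both. None of the 10 genes was called in any of these comparisons by limma, and 0 of 10 had an unadjusted p below 0.05. Of all genes, 0.00531% (1 gene, Vnn1) were called in fed liver and 0.0159% in fasted liver (0.0106% up and 0.00531% down). In fasted liver the differences ran from -0.35 for Cyp2c70 (-0.75 to 0.06) to 0.36 for Nr0b2 (-0.69 to 1.41), with adjusted p from 0.894 to 0.996 by limma. In fed liver they ran from -0.23 for Nr0b2 (-1.28 to 0.82) to 0.32 for Cyp7a1 (-0.59 to 1.23), with adjusted p from 0.926 to 0.997. Without fasted WT 4 the fasted differences were -0.23 for Nr0b2, the opposite sign, and 0.45 in place of 0.10 for Cyp7a1. Without fed KO 4 the fed differences were 0.00 for Cyp7a1, -0.12 for Nr0b2, and 0.44 in place of 0.20 for Cyp8b1. Over all single arrays left out, the fed difference of Cyp8b1 ran from -0.09 to 0.44. The knockout and wild type arrays of a feeding state overlapped for all 10 genes, while 3.12% of all genes were apart in fed and 3.15% in fasted liver.

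What the mean over both feeding states, 8 arrays against 8, can bound differs from gene to gene. It was -0.01 for Slc10a1 (-0.11 to 0.10), 0.02 for Abcb11 (-0.13 to 0.17), -0.01 for Baat (-0.16 to 0.14), -0.07 for Slc27a5 (-0.21 to 0.07) and -0.10 for Cyp27a1 (-0.24 to 0.05). The interval was wider for Nr1h4 (0.00, -0.24 to 0.24), Cyp2c70 (-0.18, -0.46 to 0.11) and Cyp8b1 (0.08, -0.29 to 0.44). For these 8 genes the interval leaves out changes of the size Abcb11 showed in fasting. For Cyp7a1 it ran from -0.44 to 0.85 around 0.21 and for Nr0b2 from -0.68 to 0.81 around 0.07, so for either gene a rise of that size lies within the interval. Without fasted WT 4 these means were 0.39 and -0.23, and without fed KO 4 they were 0.05 and 0.12. That of Cyp8b1 was 0.20 without fed KO 4, and ran from -0.07 to 0.20 over all single arrays left out.

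Whether the fasting responses differed between genotypes was tested as the knockout response minus the wild type response. No member was called (adjusted p 0.948 to 0.994 by limma), 0 of 10 had an unadjusted p below 0.05, and 0.0% of all genes were called (0 genes, with 924 at an unadjusted p below 0.05). The difference of responses was -0.25 for Cyp8b1 (-0.97 to 0.47), -0.35 for Cyp2c70 (-0.92 to 0.23) and 0.02 for Abcb11 (-0.28 to 0.33). For Abcb11, whose response was -0.72 and -0.70, the interval leaves out a full loss of the response in knockout. For Nr0b2 the difference was 0.59 (-0.89 to 2.08) and for Cyp7a1 -0.22 (-1.50 to 1.07), too wide to bound. Without fasted WT 4 these were 0.00 and 0.14, and without fasted WT 4 and fed KO 4 they were -0.11 and 0.45, so neither sign was stable. The value for Cyp8b1 was -0.49 without fed KO 4, and ran from -0.49 to 0.04 over all single arrays left out.

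Arrays of the same group disagreed most on the 2 genes at the centre of the feedback. The pooled SD within groups was 0.82 for Nr0b2 and 0.71 for Cyp7a1, beside a median of 0.15 over all genes, and only 0.313% and 0.505% of genes had a larger one. Cyp8b1 (0.39, 2.52%) and Cyp2c70 (0.31, 5.52%) followed, then Nr1h4 (0.25, 10.5%). Abcb11, Cyp27a1 and Baat were at 0.14, Slc27a5 at 0.13 and Slc10a1 at 0.07.

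Cyp7a1 and Nr0b2 deviated from their group means in opposite directions on 16 of 16 arrays. Cyp7a1 was 1.06 above its group mean on fasted WT 4, where Nr0b2 was furthest below its own (-1.79). Across the 16 arrays the deviations correlated at r = -0.71 and rho = -0.72 (permutation within groups, two-sided, p = 0.0138 and 0.0153). All 45 pairs of members were computed, and after Benjamini-Hochberg adjustment over them these values were 0.155 and 0.207, so the relation did not hold after correction. It was negative in 4 of 4 groups, with r of -0.98 in fed wild type, -0.87 in fed knockout, -0.79 in fasted wild type and -0.43 in fasted knockout, each over 4 arrays. Without the arrays furthest from the median of Cyp7a1 (fasted WT 4 and fed KO 2) r was -0.56, and without fasted WT 4 and fed KO 4 it was -0.57.

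**Figure D3:**
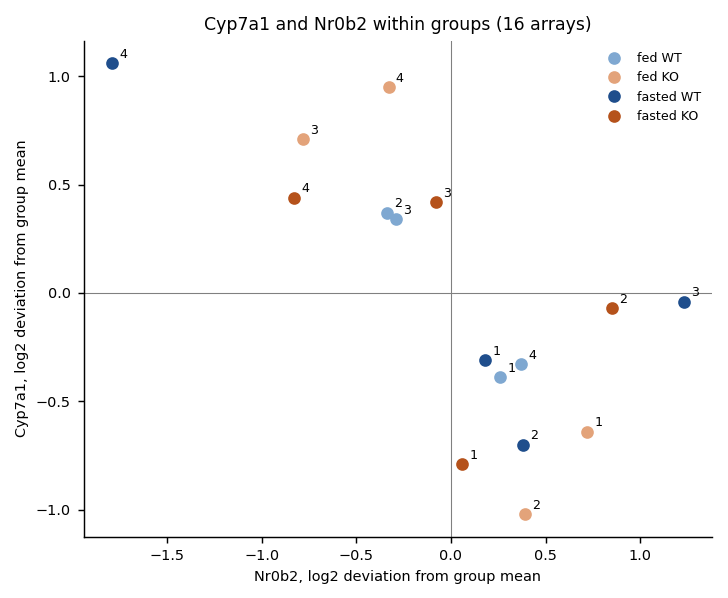
Deviation of Cyp7a1 (vertical axis) against that of Nr0b2 (horizontal axis) from the mean of the array's group, in log2, for 16 arrays numbered as in their titles. All points lie to the upper left or the lower right of the crossed zero lines, with fasted WT 4 at the far upper left.

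Cyp7a1 was related in the same way to Abcb11 (r = -0.75, permutation p = 0.00242, adjusted 0.109; rho = -0.77, p = 0.00129, adjusted 0.058), with r of -0.77 without fasted WT 4 and fed KO 2, -0.67 without fasted WT 4 alone, and -0.60 when fed KO 4 was left out too. Nr0b2 and Nr1h4 gave r = -0.68 (permutation p = 0.00581, adjusted 0.120) and rho = -0.59 (p = 0.0276, adjusted 0.207), with r of -0.57 without fasted WT 4 alone and -0.56 when fed KO 4 was also dropped. In both pairs r was negative in 4 of 4 groups. Of the 45 pairs, 5 had r above 0.5 and 5 below -0.5, and 0 passed the adjustment. Some rested on few arrays: the r of Cyp27a1 with Nr0b2 went from -0.52 to 0.16, and that of Abcb11 with Nr0b2 from 0.57 to 0.19, without the arrays furthest from the median of the first gene, fasted WT 4 among them. The points of a pair share their arrays, their RNA and the normalisation.

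The neighbours of these genes in the pathway were read from lists of 13 other enzymes, 12 other transporters, 16 other regulators and 3 genes of the gut side of the cycle. These lists were chosen with earlier results of these data known. Among the other enzymes, 2 rose and 0 fell in wild type, and 3 rose and 2 fell in knockout, with medians of 0.04 and 0.22. Of all genes, 3.34% rose and 4.27% fell in wild type, and 4.53% rose and 4.89% fell in knockout. The genes called up were Hsd17b4 and Abcd3 in both genotypes and Slc27a2 in knockout. Acox2, Amacr and Scp2 of the same list were not called. Acox2 averaged 10.97 fed and 11.13 fasted in wild type, and 10.98 and 11.20 in knockout. Amacr averaged 11.21 and 11.23 in wild type, and 11.16 and 11.26 in knockout. Scp2 averaged 12.52 and 12.56 in wild type, and 12.58 and 12.51 in knockout. The largest rise of the list was that of Cyp39a1, which was not called. It was 1.22 in wild type (means 8.36 fed, 9.58 fasted) and 0.92 in knockout (8.23 and 9.15). Hsd17b4, the peroxisomal enzyme that shortens the bile acid side chain and fatty acids, rose 1.46-fold in wild type (adjusted p = 0.0104 by limma) and 1.59-fold in knockout (0.00179). Its wild type call was lost when only the groups compared were fitted (0.0622). Abcd3, a peroxisomal importer of bile acid precursors and fatty acids, rose 1.28-fold (0.0344) and 1.36-fold (0.00769). Without fasted WT 1, 2 or 4 or fed WT 2 or 4 in turn, its wild type adjusted p was 0.0584 to 0.111. Slc27a2, an acyl-coenzyme A ligase, rose 1.22-fold in knockout (0.0368), which became 0.0733 to 0.124 without fasted KO 1, 3 or 4 or fed KO 1 or 3 in turn. Its wild type difference was 0.24 (0.07 to 0.42, adjusted p = 0.0904).

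The enzymes that fell in knockout were Akr1d1 and Cyp7b1. Akr1d1, the reductase of the steroid ring in both pathways, read 10.69, 10.21, 10.63 and 10.24 in fed and 9.41, 9.66, 9.20 and 9.34 in fasted knockout, a 2.06-fold fall (adjusted p = 0.000434 by limma). In wild type it read 10.65, 10.05, 10.53 and 10.48 when fed and 9.73, 10.32, 10.15 and 10.30 when fasted, with a difference of -0.30 (-0.63 to 0.03, adjusted p = 0.294). The fasted knockout arrays lay below all fasted wild type arrays, as those of 3.15% of all genes lay wholly above or below. Of the 13 other enzymes 3 were apart in fasted liver, Akr1d1 below and Hsd17b4 and Abcd3 above. The genotype difference of Akr1d1 was -0.72 (-1.06 to -0.39, unadjusted p = 0.000271) and did not hold after correction (adjusted p = 0.707 by limma). Nor did its difference of responses of -0.74 (-1.21 to -0.27, adjusted p = 0.948). Without fasted WT 1, the lowest of its group, they were -0.86 (adjusted p = 0.0741) and -0.87 (0.347), also not called. Cyp7b1, the oxysterol hydroxylase of the acidic pathway, fell 2.50-fold in knockout (adjusted p = 0.0144). Without fasted KO 1 or fasted KO 4, the low arrays of that group at 9.95 and 9.89, its adjusted p was 0.0599 or 0.057. In wild type its difference was -0.72 (-1.41 to -0.04, adjusted p = 0.207), and -0.40 (adjusted p = 0.451) without fasted WT 1, which read 9.87.

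Among the 12 other transporters, 1 rose and 2 fell in each genotype (medians -0.09 and 0.10), and they were the same genes. Over all genes, 7.61% were called in wild type and 9.42% in knockout. Abcb4, which moves phosphatidylcholine into bile beside the bile salts that Abcb11 exports, rose 1.79-fold in wild type (adjusted p = 0.000958 by limma) and 1.75-fold in knockout (0.000841). It lay at 10.34 to 11.17 on fed and 11.56 to 11.93 on fasted arrays, so it moved against Abcb11. Slco1a1, an uptake carrier of organic anions, fell 1.98-fold (0.00561) and 2.06-fold (0.00253). Slco1a4, a carrier of the same family, had the largest wild type difference of the list, 1.57, but was not called in either genotype. In wild type it lay at 8.46 to 9.22 fed and 9.46 to 10.87 fasted. In knockout it lay at 7.16 to 9.29 fed and 7.27 to 9.98 fasted. Atp8b1, a canalicular lipid flippase, fell 1.58-fold (0.00673) and 1.53-fold (0.00783). The knockout call of Atp8b1 was lost without the 3 arrays whose name ends in 2 (0.0551), as was that of Abcd3 (0.0502).

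Among the 16 other regulators, 3 rose and 1 fell in wild type, and 0 rose and 1 fell in knockout (medians 0.10 and -0.04). The share called over all genes was 7.61% in wild type and 9.42% in knockout. Ppargc1a, a coactivator known for its rise in fasting liver, rose 2.78-fold in wild type (adjusted p = 0.00283 by limma). In knockout its difference was 0.84 (0.27 to 1.40), just past the threshold at an adjusted p of 0.0594. Nfil3, a repressor tied to the clock, rose 1.68-fold (0.0293), and its adjusted p was 0.0567 to 0.0903 without fasted WT 1, 2 or 3 or fed WT 2, 3 or 4 in turn. Fgfr4, the receptor of the gut signal FGF15, fell 1.31-fold (0.0289), with 0.051 to 0.0975 without fasted WT 2 or 4 or fed WT 1, 2 or 4, and its knockout difference was -0.31 (-0.53 to -0.10, adjusted p = 0.0676). Hnf4a rose 1.18-fold (0.0473), and leaving out any array other than fasted WT 1, fed WT 3 or fed KO 4 took it past the threshold (0.052 to 0.123). In knockout, Nr5a2, a receptor that drives Cyp8b1, fell 1.29-fold (0.0245), with 0.0842, 0.0501 and 0.0771 without fasted KO 1, fasted KO 4 and fed KO 4, and its wild type difference was -0.30 (-0.50 to -0.09, adjusted p = 0.0767). The knockout differences of Nfil3 and Hnf4a were 0.25 (-0.17 to 0.67) and 0.04 (-0.10 to 0.19). None of these calls was shown to differ between the genotypes, since no difference of responses was called.

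Of the gut side genes, Fgf15 lay at 3.96 to 4.61 on all arrays, below every array's median. Slc10a2, the uptake carrier of the ileum, fell 2.63-fold in knockout (adjusted p = 0.0151 by limma), with 0.0524 and 0.0539 without fed KO 3 and fed KO 4. Its wild type difference was -1.01 (adjusted p = 0.0874). No gene of these 4 lists was called between genotypes.

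**Figure D4:**
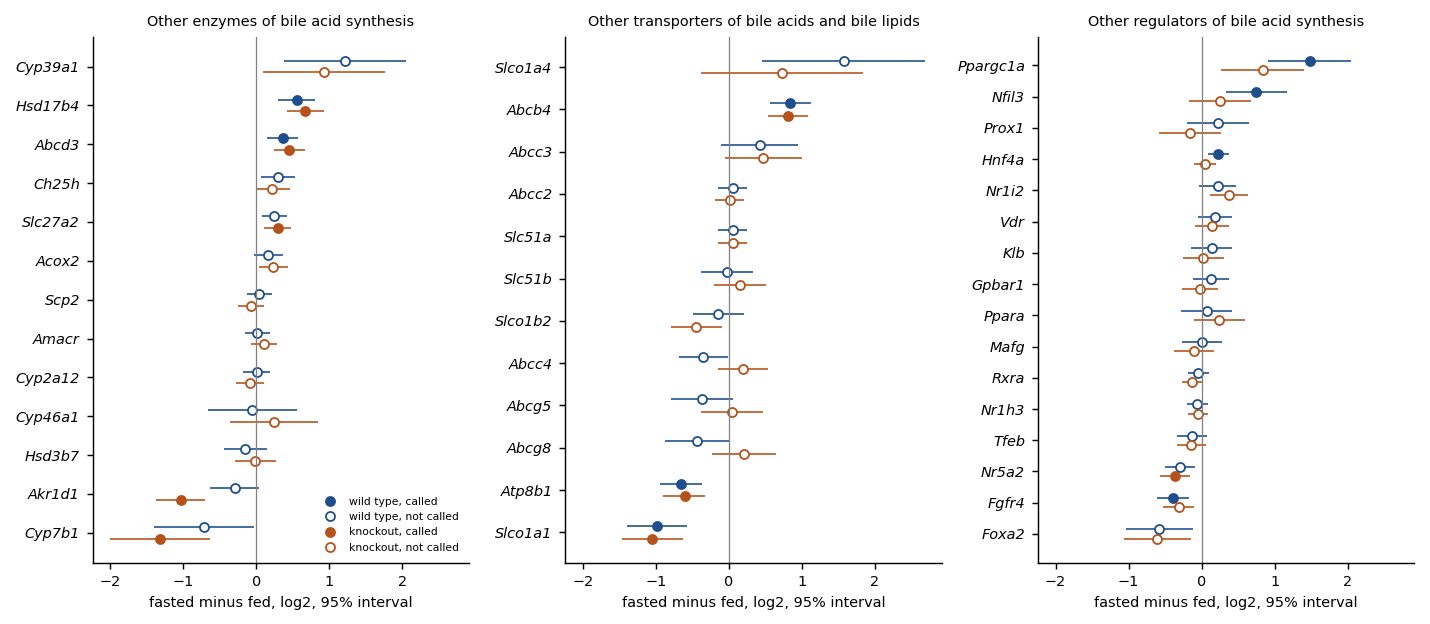
Fasted minus fed log2 differences (horizontal axis) with 95% intervals for the other enzymes, transporters and regulators (vertical axis, ordered by the wild type value), in wild type and knockout; filled points are called genes. Abcb4 lies to the right and Slco1a1 and Atp8b1 to the left in both genotypes, while Ppargc1a is filled in wild type and open in knockout. The points of Slco1a4, also to the right, are open.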

How the data were processed

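Liver RNA on 16 arrays (4 groups of 4) was analysed from deposited log2 intensities, which the authors made by RMA per the submitters' processing notes. Software version, array library and build: not given in the sources used here. Of 35556 probe sets, 21218 had 1 gene symbol, 1881 had several and 12457 were not in the gene table. Per gene the probe set with the highest mean was kept (18820 genes), with no filter on dim genes. limma 3.58.1 in R 4.3.3 fitted group means to the 16 arrays together, with 12 residual degrees of freedom and 4.66 from the prior. Tests were two-sided, adjusted by Benjamini-Hochberg over all genes and called below 0.05. Pair correlations used 100000 permutations within groups. The procedure was tested on simulated data.

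The members and lists were chosen with earlier results of these data known. Beyond the 10 members and Vnn1, the rule named up to 4 called genes per list, direction and fasting contrast. It also named the 3 genes most like Cyp7a1, Cyp8b1 and Nr0b2, with predicted genes and some others skipped by symbol. Uncalled genes of the lists given with values (Fgf15, Cyp39a1, Acox2, Amacr, Scp2 and Slco1a4) fall outside it. So do the cell markers named (Lrat, Col3a1, Dcn, Adgre1 and Marco) and the array-specific markers. Alternatives were other scalings, a 30th percentile filter, averaged probe sets, other variance priors, array weights, fewer groups or arrays, blocks, a threshold of 0.01 and each array left out. Promoter windows are from RefSeq GRCm38.p6, and promoters of Cyp7a1, Baat and Slc27a5 were not used here.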

Additional observations from a re-analysis of the deposited data

Results flagged for a closer look

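In 24 genes (the 10 members and 14 called genes of the other lists), each group of 4 arrays was searched for a single array far from the other 3. Of 96 groups, 6 held such an array, close to the rate of about 1 in 20 that chance gives. The flags therefore describe single values and are not results in themselves. Among the members it was Cyp8b1 on fed KO 4, at 10.49, where the other 3 of its group lay at 11.39 to 11.54. The same array stood apart for Nr5a2, at 9.70 against 9.43 to 9.47, and it is the array with the highest acute phase genes.

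The remaining 4 were Nr5a2 on fed WT 2 (9.35 against 9.52 to 9.54), Cyp7b1 on fasted WT 1 (9.87 against 11.11 to 11.17), Slco1a1 on fed WT 3 (11.90 against 11.35 to 11.44) and Ppargc1a on fed KO 1 (8.49 against 7.73 to 7.85).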

How the results depend on the processing

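Each fasting result was refitted under 28 alternatives. Of the 6 called results of the members, 5 stayed called in all of them, and Cyp8b1 in knockout was lost in 4: the 3 fits without fed KO 4 given above, and the threshold of 0.01. None of the 54 uncalled member results was gained, and no called result turned its direction. Of 25 other called results, cell markers included, 15 lost the call in at least 1 alternative. Over all genes, wild type fasting called 1432 genes, 576 at a threshold of 0.01, 829 with only the groups compared, and 880 to 1608 without single arrays (880 without fasted WT 4). Knockout fasting called 1772, 879 at 0.01, 964 without the 3 arrays whose name ends in 2 (fed WT 2, fed KO 4 and fasted KO 1), and 1216 to 1861 without single arrays. Fasted knockout against wild type called 3 genes, 1 at 0.01, 1 without those 3 arrays, 1 without fasted WT 4 and fed KO 4, and 1 to 5 without single arrays. Fed knockout against wild type called 1 gene, 2 with median centring, 2 with the trended and robust prior, 2 with array weights, 0 with only the groups compared, 0 without the 3 arrays, and 1 to 3 without single arrays. The mean over feeding states called 1 to 2 genes and the difference of responses 0 to 1 without single arrays. Fits with arrays left out also hold fewer arrays, and the cause of these shifts was not tested. Wild type fasting called 629 genes up and 803 down, and 1014 and 542 with each array centred on its median. Title numbers did not pair the arrays: deviations of same-numbered arrays correlated at -0.22 to 0.209, 4 of 24 pairs were over 0.1, and 3 of 16 arrays correlated best with their own number. With the title number as a replicate block, 1324 genes were called in wild type and 1658 in knockout fasting, with the same 3 members, and 2, 1, 1 and 0 genes in the genotype comparisons (fasted, fed, mean) and the difference of responses.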

Other observations

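Among genes kept by a filter on symbols, those most like Cyp8b1 in log2 values over the 16 arrays were Retsat, Cyp4a31 and Tram2. Retsat (r = 0.97) is a retinol saturase and Cyp4a31 (0.96) a fatty acid hydroxylase, and Tram2 gave 0.96. Deviations from the group means correlated at 0.93, 0.92 and 0.92. These deviations are part of the 16 values used to pick the genes, so they give no separate support. Cyp8b1 deviated furthest from its group mean on fed WT 4 (-0.88) and fed KO 4 (-0.72). Retsat averaged 11.67 in fed wild type, 11.70 in fed knockout, 12.89 in fasted wild type and 13.09 in fasted knockout. Cyp4a31 averaged 9.86, 9.69, 12.09 and 12.12 in the same order.

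For Cyp7a1 the most alike genes were Ift88 (r = 0.80), Rpf2 (0.79) and Eif2b3 (0.79), and within groups r was 0.81, 0.83 and 0.88. Eif2b3 is a subunit of a translation initiation factor. For Nr0b2 they were Ccn4 (0.78), Spc25 (0.77) and Cklf (0.76). The average level of Ccn4 was 4.94 and that of Cklf 4.68, below every array's median. These genes were picked as the highest among genes kept by a filter on symbols, which dropped predicted genes and some others. The values therefore describe the 16 arrays and carry no test.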
